A study of Mus musculus with 2 samples.

Results

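In adult mouse liver, 333 stretches of the genome carried dense clusters of peaks of the transcription factor GATA4. GATA4-bound DNA had been enriched with an antibody and sequenced (ChIP-seq). A peak is a region of the genome with an excess of such DNA, and its summit is the position where the deposited list places the highest point. The list of peaks that the authors name optimal, made from both replicates on the mouse genome build mm10, held 24083 peaks. Chromosomes 1 to 19 and X carried 24050 distinct summits, and 33 peaks on other sequences were left out. Neighbouring summits at most 5 kb apart were joined, and every chain of at least 4 summits was kept and is called a run. The 333 runs held 1523 summits, 6.33% of all. For comparison, 14332 summits (59.6%) were isolated, with no other summit within 5 kb, and 8195 lay in groups of 2 or 3. The runs were chosen by summit positions in this list, which are measured values, so their number and spacing are descriptions. The series held 1 group of 2 samples, whole liver labelled as biological replicates 1 and 2, immunoprecipitated with an antibody against GATA4. Both samples carry the same biosample and donor identifiers, and whether they came from separate animals is not stated, so values that differ between them may do so for technical reasons. The age of the donor is labelled unknown and its sex was not collected. No treated group was studied. Whole liver mixes hepatocytes, endothelial cells and other cells, and peak lists measure no expression, so which cells a peak came from cannot be read from these files. Read depth is unknown.

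GATA4 is a zinc-finger transcription factor that binds DNA at WGATAR, a 6-letter pattern with A or T for W and with A or G for R. In the adult liver it is known as a factor of the sinusoidal endothelium, the fenestrated lining of the liver capillaries, and it also acts in hepatocytes during development. GATA factors work with cofactors of the FOG family and often bind near other factors, among them ETS factors in endothelial cells, which recognise a GGAA core. Several binding regions in a row around a gene are a known feature of genes that define a cell type.

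The run at Gpr182 and Rdh1 is not a typical one, since it has more summits than most runs and the most in replicate 1's list. It is among the runs with the strongest peaks, so the sequence around each of its 8 summits is printed here, 50 bp to each side on the + strand of mm10 (RefSeq GRCm38.p6). Gpr182 encodes a receptor of endothelial cells, and Rdh1 and Rdh16f1 encode retinol dehydrogenases. Capitals mark WGATAR on either strand, with the reverse complement printed as it reads on the + strand.
Gpr182, summit 1, chr10:127745953-127746053: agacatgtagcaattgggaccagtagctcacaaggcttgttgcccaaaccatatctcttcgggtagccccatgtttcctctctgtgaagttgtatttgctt
Gpr182, summit 2, chr10:127749328-127749428: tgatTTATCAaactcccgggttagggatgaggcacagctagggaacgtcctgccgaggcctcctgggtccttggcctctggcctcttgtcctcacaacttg
Gpr182, summit 3, chr10:127751718-127751818: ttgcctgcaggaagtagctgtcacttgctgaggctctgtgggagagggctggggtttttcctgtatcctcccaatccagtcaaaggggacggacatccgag
Gpr182, summit 4, chr10:127754855-127754955: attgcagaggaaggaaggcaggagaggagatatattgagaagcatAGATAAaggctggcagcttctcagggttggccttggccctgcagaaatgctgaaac
Gpr182, summit 5, chr10:127755423-127755523: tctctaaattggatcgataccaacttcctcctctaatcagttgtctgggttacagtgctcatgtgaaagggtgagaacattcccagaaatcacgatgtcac
Gpr182, summit 6, chr10:127756208-127756308: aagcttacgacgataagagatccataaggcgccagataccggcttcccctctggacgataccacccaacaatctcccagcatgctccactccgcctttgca
Gpr182, summit 7, chr10:127759313-127759413: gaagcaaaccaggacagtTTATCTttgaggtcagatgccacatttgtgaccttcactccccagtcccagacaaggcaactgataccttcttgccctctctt
Gpr182, summit 8, chr10:127763945-127764045: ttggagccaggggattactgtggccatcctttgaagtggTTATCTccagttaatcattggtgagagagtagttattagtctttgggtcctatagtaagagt
WGATAR lay within 50 bp of 4 of the 8 summits. The strongest, summit 6 at rank 29 of the optimal list, had none, although its window held 3 copies of the bare core GATA on either strand. The ranks of the 8 summits ran from 29 to 12946 by the peak signal score, which was deposited without a unit and is used here to describe and rank peaks within a list. Replicate 2's own list held all 8 and replicate 1's own list held 6, the highest count of any run.

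The Dlc1 and Dusp1 runs differed in their WGATAR content, and the windows of the 4 strongest Dlc1 summits and of 3 Dusp1 summits are printed for that reason. Dlc1 encodes a GTPase-activating protein, and Dusp1 encodes a phosphatase that inactivates MAP kinases.
Dlc1, summit 2, chr8:36661963-36662063: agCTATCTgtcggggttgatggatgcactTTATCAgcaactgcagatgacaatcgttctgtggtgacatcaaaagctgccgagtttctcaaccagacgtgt
Dlc1, summit 4, chr8:36668450-36668550: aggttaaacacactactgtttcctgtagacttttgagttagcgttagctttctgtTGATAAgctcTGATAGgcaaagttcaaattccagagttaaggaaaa
Dlc1, summit 6, chr8:36675517-36675617: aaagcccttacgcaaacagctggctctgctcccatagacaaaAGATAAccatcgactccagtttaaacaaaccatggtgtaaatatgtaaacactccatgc
Dlc1, summit 7, chr8:36677970-36678070: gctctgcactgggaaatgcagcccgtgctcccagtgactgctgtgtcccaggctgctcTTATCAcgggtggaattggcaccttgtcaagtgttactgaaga
Dusp1, summit 1, chr17:26503106-26503206: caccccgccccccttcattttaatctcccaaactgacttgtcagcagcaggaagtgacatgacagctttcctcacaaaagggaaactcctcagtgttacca
Dusp1, summit 2, chr17:26504154-26504254: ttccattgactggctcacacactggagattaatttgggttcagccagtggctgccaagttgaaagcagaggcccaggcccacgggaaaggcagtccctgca
Dusp1, summit 5, chr17:26508345-26508445: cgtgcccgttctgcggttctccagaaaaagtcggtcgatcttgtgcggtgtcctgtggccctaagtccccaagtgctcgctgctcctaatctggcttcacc
In the Dlc1 run 7 of 8 summits had WGATAR within 50 bp, and in the Dusp1 run 1 of 9 did, the weakest. Every Dusp1 summit except summit 1 had another within 360 bp, and no Dlc1 summit did. Whether that bears on the difference was not tested. All 8 Dlc1 summits were in replicate 2's list and 2 were in replicate 1's. Of the 9 Dusp1 summits, 4 were in replicate 2's list and none in replicate 1's. The strongest Dlc1 summit ranked 961.

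A run of 4 summits at chr8:115582304-115589124, whose strongest summit lay 121238 bp from the start site of Maf, held 27 copies of WGATAR, the most of any run. Maf encodes a basic leucine zipper transcription factor. Both windows that held these copies lay in a tandem repeat of CTAT units, and the genome file marks 94.1% of the bases of summit 3 and 91.1% of those of summit 4 as repeat.
Maf-side run, summit 3, chr8:115588798-115588898: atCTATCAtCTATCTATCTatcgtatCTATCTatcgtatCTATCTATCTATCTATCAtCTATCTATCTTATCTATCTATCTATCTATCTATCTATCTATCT
Maf-side run, summit 4, chr8:115589074-115589174: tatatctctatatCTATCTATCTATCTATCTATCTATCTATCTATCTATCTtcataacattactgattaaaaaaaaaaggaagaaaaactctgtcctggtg
Summit 3 held 18 overlapping copies and summit 4 held 9. Both were in replicate 1's list and neither was in replicate 2's. The median number of copies per run was 3.00.

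Most runs were short chains. There were 217 runs of 4 summits, 69 of 5, 33 of 6, 8 of 7, 3 of 8 and 1 each of 9, 10 and 13. The median span from first to last summit was 6861 bp, with quartiles of 4665 and 9222 bp and a range of 676 to 24423 bp, and all runs together covered 2396 kb. The rule sets these limits: the largest distance inside a run was 4998 bp, and the smallest distance that ended a chain was 5006 bp. Just below the threshold on number, 727 groups of 3 summits had a median span of 3713 bp, against 5945 bp for runs of 4. Runs lay on 19 chromosomes, most on chromosome 11 (30 runs), and none on X.

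The 1190 distances between neighbours in runs fell into 2 sets. A first set of 179 was under 360 bp, of which 148 were 200 to 250 bp. Another 10 distances were between 360 and 500 bp, 194 were between 500 and 1000 bp, and 807 were at least 1 kb. The 2 peaks overlapped in 174 of these 179 close pairs and in 0 of the 1011 wider pairs. The median width of peaks in runs was also 360 bp, so this split largely restates the distances. In groups of 2 or 3 summits, 23.2% of distances were under 360 bp. In all, 346 summits of runs (22.7%) had another within 360 bp, and 151 of the 333 runs held at least 1 such pair. The limit of 360 bp was chosen after the distances were seen. With each such chain replaced by its strongest summit, 238 runs with 1067 summits were left. The results below are therefore also given without close summits where that changes them.

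**Figure D1:**
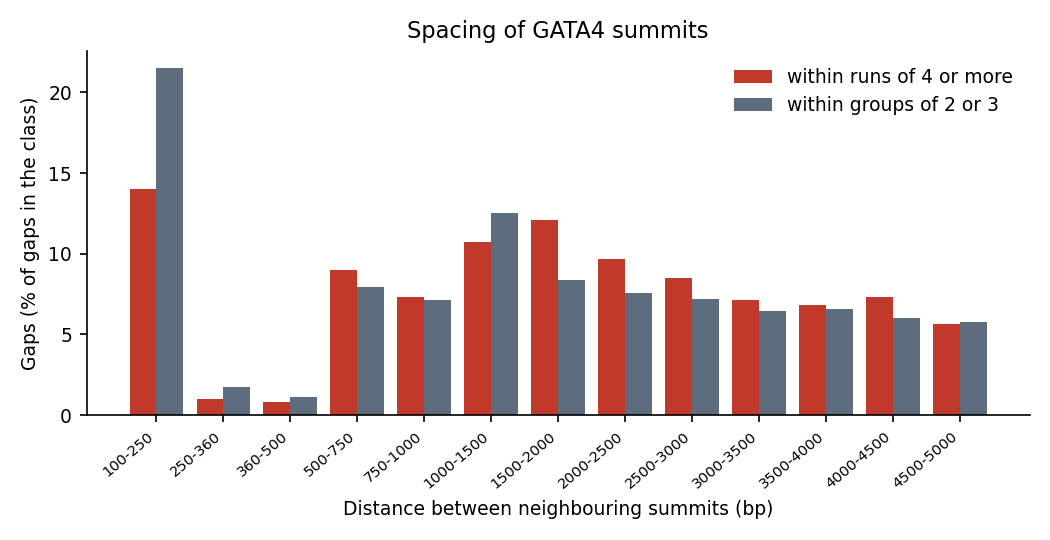
Distances between neighbouring summits, in bp on the horizontal axis in classes of unequal width, as a percentage of all distances within runs (red, 1190 distances) and within groups of 2 or 3 summits (grey, 4461 distances). In both classes a set of distances below 250 bp stands apart from the rest, and few lie between 250 and 500 bp.

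The 2 runs with most summits lay in introns. The run with most summits, 13 over 17163 bp at chr8:41003177-41020340, lay wholly within introns of Mtus1, which encodes a microtubule-associated protein. Its 13 summits ranked from 1098 to 23416, 5 had WGATAR, 2 were listed for replicate 1 and 10 for replicate 2. Only its 2 strongest summits were in both lists, and 3 summits lay closer than 360 bp to another.

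Zfpm1 encodes FOG1, a cofactor that binds GATA factors, and it carried 2 runs. The first in size held 10 summits over 24423 bp at chr8:122306924-122331347, the widest of all runs, in introns of Zfpm1 and of the overlapping predicted gene Gm20388. Its strongest summit ranked 97, 7 of 10 summits had WGATAR with 11 copies in all, and 10 were in replicate 2's list against 3 in replicate 1's. Summits 1 and 2, both among those 3, lay 203 bp apart on 1 shared peak position. The other run, 5 summits at chr8:122281730-122284841, began at the Zfpm1 promoter, and 22083 bp separated the 2 runs. None of its 5 summits was in replicate 1's list and all 5 were in replicate 2's. The gene of GATA4 itself carried a run of 6 summits at chr14:63240279-63256161, of which 2 were promoter summits and 4 intronic. Its strongest summit, 10890 bp from the nearest start site, ranked 3138 and held 2 copies of WGATAR. No summit of the Gata4 run was in replicate 1's list, and 5 of 6 were in replicate 2's.

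Endothelial genes with runs included Gpr182, above, and Kdr, the gene of the main endothelial receptor for the growth factor VEGF. Kdr carried 2 runs of 5 and 4 summits, separated by 30526 bp. The run of 5, chr5:75968477-75978556, reached the promoter and ranked 7294 at its strongest, and 3 of its 5 summits were in replicate 2's list. The run of 4, chr5:75930134-75937951, lay at the other end of the gene with a strongest rank of 3301, and all 4 were in replicate 2's list. Neither run had a summit in replicate 1's list. The Egfl7 run, next to a gene for a secreted endothelial protein, held 6 summits at chr2:26572062-26583762 with a strongest rank of 214. The Cdh5 run, at the gene of the endothelial cadherin, held 4 summits with a strongest rank of 2842. WGATAR was at none of its summits, while MGGAAR, the ETS-type sequence in which M is A or C, was at all 4. MGGAAR is common, at 48.3% of all summits in runs and 46.3% of isolated summits. No summit of the Cdh5 run was in replicate 1's list. At Eng, which encodes a co-receptor for ligands of the TGF-beta family, 5 summits ranked between 1812 and 6621, and 1 of them had WGATAR. Ephb4 encodes a receptor for ephrin B2 that marks veins, and its run of 5 summits had the widest range of signal, 22.6 times between strongest and weakest. Oit3, a gene expressed in the liver sinusoid, shared with Mcu a run with 2 strong summits at ranks 60 and 100.

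**Figure D2:**
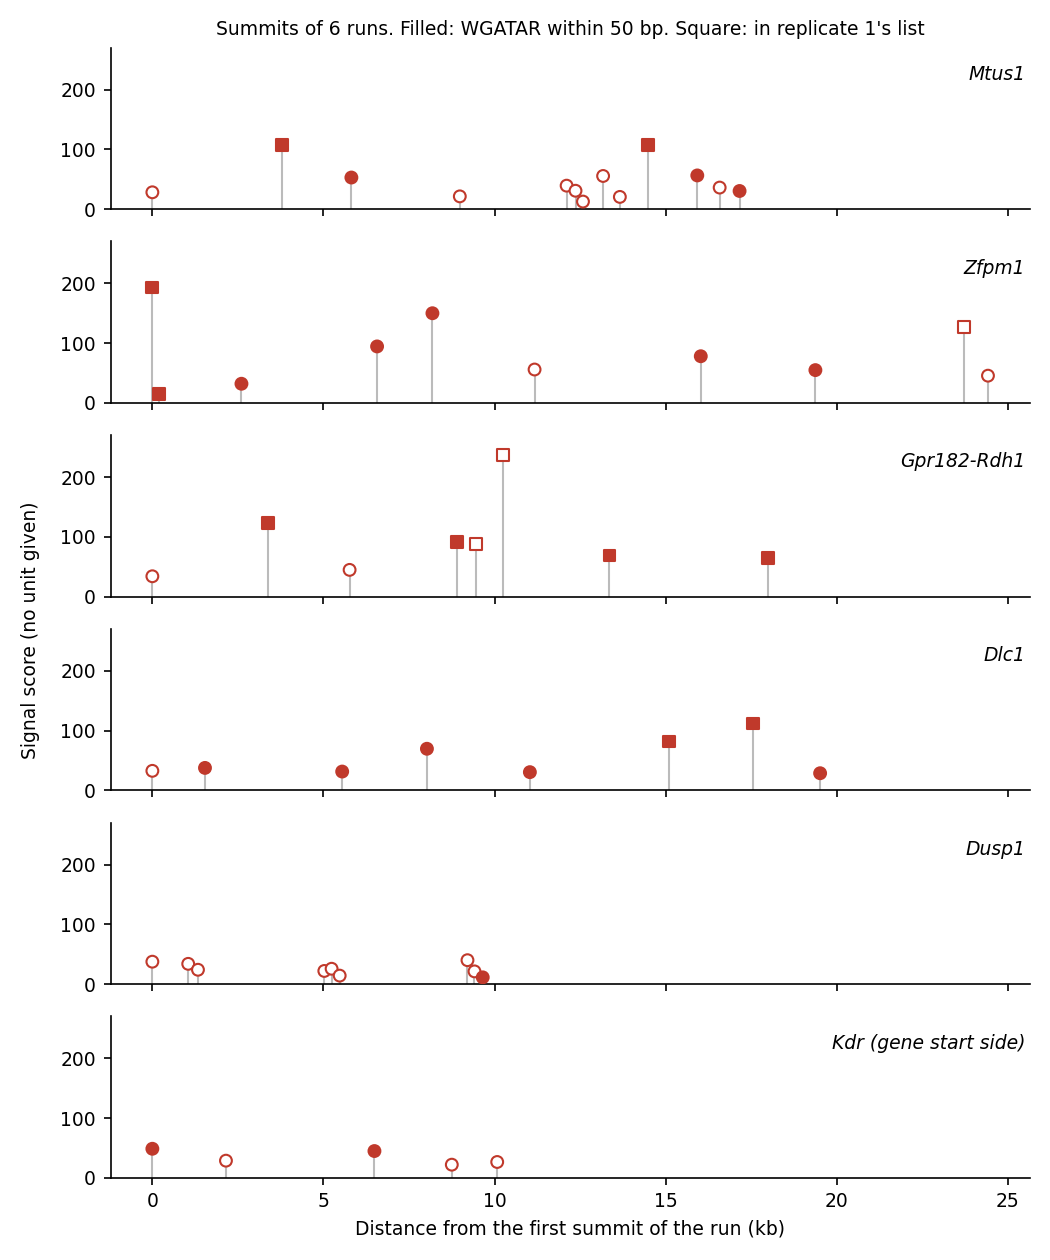
Signal score of each summit (no unit given) against its distance from the first summit of the run in kb, for 6 runs named by a gene within 10 kb. Filled symbols have WGATAR within 50 bp and squares are summits in replicate 1's own list. The Gpr182 run has 6 squares and a strongest summit without WGATAR, and the Dusp1 and Kdr panels have no squares.

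Other runs of 7 or 8 summits lay near genes of several kinds. Osgin1, a gene induced by oxidative stress, had 8 summits at chr8:119422179-119437116, most of them upstream of the gene, with a strongest rank of 1886. Id3, which encodes an inhibitor of basic helix-loop-helix factors, had 7 summits at chr4:136139932-136148474. Its strongest, in the intron 1289 bp from the start site, ranked 410, and 6 of 7 were in replicate 2's list against none in replicate 1's. The run at Sec24a and Sar1b, which encode parts of the COPII coat of secretory vesicles, had 7 summits at chr11:51756619-51768548, including both promoters. Its strongest summit ranked 119 and the next ranked 3758. A run at Cep83 and Plxnc1 held 7 summits, 4 of them with another within 360 bp, and 3 in replicate 1's list. Summits 2 and 3 of that run, both among those in replicate 1's list, shared 1 peak position. The run at Agbl3, Cyren, Tmem140 and Wdr91 held 7, of which 4 were in replicate 1's list. Its summits 2 and 3, both among those 4, lay closer than 360 bp to each other. Rapgef5, which encodes an exchange factor for Rap GTPases, held 7 with 5 of them intronic. Gse1 also had a run of 7, and Slc12a8 had a run of 6 within 5743 bp.

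Runs held both strong and weak peaks. The strongest summit of a run had a median rank of 3091. In 71 runs it was among the first 1000 of the list, and in 39 it ranked past 10000. Of the 997 summits among the first 1000 on these chromosomes, 79 (7.92%) were in runs, against 6.33% of all summits. The strongest peak in a run, rank 6, lay in an intron of Pdlim5, which encodes an actin-associated LIM protein. Its 3 neighbours ranked 17171 to 22952, so the chain rested on 1 strong and 3 weak summits, and only the strong one was in replicate 1's list. The same form was seen at Arsa, the gene of a lysosomal sulfatase, with rank 16 beside ranks 7715, 13060 and 22095. At Adk, which encodes adenosine kinase, the 5 intronic summits ranked 22 to 20990, and 3 were in both replicates' lists. The Ypel2 run held 6 intronic summits from rank 24 to rank 14929. The Got1 run, at the gene of the cytosolic aspartate aminotransferase, had its strongest summit, rank 48, 70 bp from the start site and without WGATAR. The run within 10 kb of Fermt2, which encodes an activator of integrins, held rank 51, with the nearest start site, that of Gnpnat1, 67655 bp away. Within runs the strongest signal was a median of 3.95 times the weakest, with a range of 1.13 to 22.6.

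Among 21755 protein-coding genes (GENCODE mouse release 21, basic set), 415 had a summit of a run in the gene or within 10 kb, which is 1.91%. Any summit lay within that distance of 47.6% of genes, and 4.01% of those genes had a summit of a run there. By quintile of gene span, from the shortest to the longest genes, the share with a summit of a run was 1.40%, 1.45%, 1.24%, 2.28% and 3.17%. Nearness does not assign a run to a gene. Of the 333 runs, 49 had no protein-coding gene within 10 kb, 187 had 1 and 97 had at least 2.

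Of the 10 gene lists examined, that of sinusoidal endothelial genes had the highest share with a run in the optimal list. A summit of a run lay within 10 kb of 12 of its 39 genes (30.8%), against the 1.91% of all genes, and any summit lay near 37 of the 39. That order depended on the rule. With summits joined at 2.5 kb a run lay near 1 of the 39 genes (2.56%, against 0.570% of all genes), a lower share than in 5 other lists, among them hepatocyte genes at 5.13% and adhesion and cytoskeleton genes at 5.41%. In the conservative list a run lay near 3 of the 39 (7.69%, against 0.170% of all genes), a lower share than the 1 of 8 GATA and FOG genes. Kdr had 9 run summits within 10 kb, Gpr182 had 7 and Egfl7 had 6. Adgrf5, Cdh5, Eng, Esam, Fcgr2b, Mrc1 and Stab2 had 4 each, Oit3 had 3 and Ehd3 had 2. Esam, Fcgr2b, Mrc1, Stab2 and Ehd3 were named after their values were seen. The Mrc1 run, at the gene of the mannose receptor, had rank 85, WGATAR at all 4 summits, and 3 of them in replicate 1's list. The median span of the 39 genes was 36075 bp, against 17414 bp over all genes. Several members with many summits had no run. Nrp1 had 14 summits within 10 kb, Flt1 had 11 and Ptprb had 11, and these 3 were named after their values were seen.

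Hepatocyte genes of plasma proteins and metabolism had a run near 4 of 39, 10.3% against the 1.91% of all genes, while any summit lay near 34. Apoe encodes a lipoprotein component, Ass1 an enzyme of the urea cycle, G6pc the catalytic unit of glucose-6-phosphatase and Scarb1 the receptor for high-density lipoprotein. Each had 4 run summits within 10 kb. WGATAR was at all 4 summits of the G6pc run, which ranked 389 at its strongest and had 3 summits in replicate 1's list. Liver transcription factors had a run near 3 of 28 (10.7%, against 1.91% of all genes): Cebpa, Cebpb and Nr0b2. The median span of these 28 genes was 38182 bp, against 17414 bp over all genes. The Cebpb run ranked 164 at its strongest, 1067 bp from the start site. Among 8 GATA and FOG genes 2 had runs, Zfpm1 with 15 run summits and Gata4 with 6.

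Of 25 genes of endothelial transcription regulators, among them ETS, E-box and LMO factors, 3 had runs: Meis1 with 5 run summits, Epas1 with 4 and Fli1 with 4. Meis1 encodes a homeobox factor and Epas1 a hypoxia-inducible factor. Fli1 encodes an ETS factor, and all 4 of its run summits had WGATAR. Adhesion and cytoskeleton genes had runs near 5 of 37 (13.5%, against 1.91% of all genes). Arhgef12 had 5 run summits, and Cdc42ep4, Ctnnd1, Pdlim5 and Tns1 had 4 each. The median span was 92825 bp in this list and 63722 bp among the endothelial regulators, against 17414 bp over all genes. The list of Kupffer cells, the liver's macrophages, had 1 of 20, Id3, a gene that other cells also express. Ubiquitous genes, neuronal genes and genes of hepatic stellate cells had none of 20 each, with any summit near 18, 7 and 10 of them. In lists of 20 genes a count of 0 is close to the 1.91% of all genes. With close summits merged, 12 of 39 endothelial genes, 3 of 39 hepatocyte genes and none of the 20 ubiquitous genes had a run, against 1.43% of all genes. Replicate 2's own list gave runs near 17 of the 39 endothelial genes, 3 of 39 hepatocyte genes and 1 of 20 ubiquitous and of 20 neuronal genes, against 2.41% of all genes. Replicate 1's list, with 4 runs in all, gave a run near 1 endothelial gene, against 0.0322% of all genes.

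**Figure D3:**
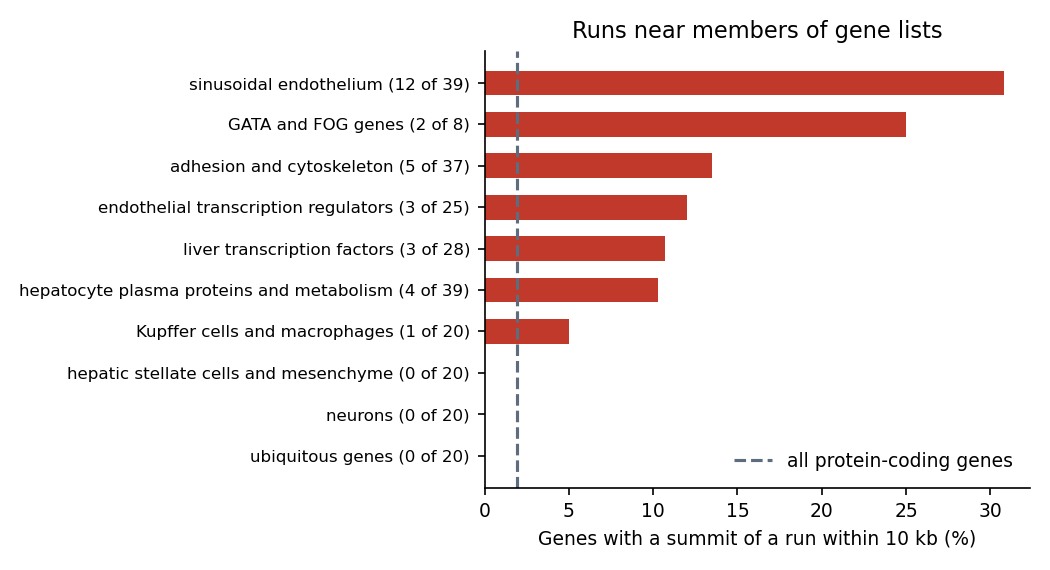
Percentage of the genes of each list with a summit of a run in the gene or within 10 kb, with the counts beside each name, and the share of all protein-coding genes as a dashed line at 1.91%. Sinusoidal endothelial genes reach 30.8%, and ubiquitous, neuronal and stellate cell genes are at 0.

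Some runs were neighbours of each other. The median distance between consecutive runs on a chromosome was 3818 kb, but 16 of the 314 consecutive pairs were at most 50 kb apart, the closest 5588 bp. The strongest summits of 2 runs each were nearest to the same gene for 10 genes, among them Kdr, Zfpm1 and Maf. The 2 Maf-side runs were 42206 bp apart. The Maf-side run of 7 summits, chr8:115528432-115540098, was the largest run without a gene within 10 kb. It lay 142844 bp beyond the 3′ end of Maf, all 7 of its summits were in replicate 2's list and 2 in replicate 1's, and 4 had WGATAR. The 2 in replicate 1's list lay closer than 360 bp to each other, and their peaks overlapped. In the 49 runs without a gene within 10 kb, the strongest summit was a median of 56963 bp from a start site, with a range of 14800 to 189728 bp. Their nearest start sites included those of Hpgd, which encodes a prostaglandin dehydrogenase, Bmp2, which encodes a secreted signalling protein, and Jun, which encodes a subunit of AP-1. The strongest summits ranked 159 for Hpgd at 40974 bp, 419 for Bmp2 at 56509 bp and 567 for Jun at 109399 bp. These 3 were named after their values were seen.

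Within the genome, summits in runs were found in introns more often than isolated summits. The share was 45.3% in runs and 39.6% among isolated summits, a difference of 5.72 points (95% interval 3.10 to 8.35, two-sided Fisher's exact test, adjusted p = 7.09e-05 over 4 places). It turned to -4.72 points, without passing the test, in the conservative list (Fisher's exact test, p = 0.280). Promoter summits, within 1 kb of a protein-coding start site, made up 18.1% of summits in runs and 21.7% of isolated summits, against 21.6% of all summits. The difference of -3.64 points (-5.61 to -1.52) had an adjusted p of 0.00178. It changed direction with promoters taken as 2.5 kb, at 3.57 points, or with summits joined at 2.5 kb, at 4.56 points. Intergenic summits were 33.5% in runs and 36.2% among isolated summits (Fisher's exact test, adjusted p = 0.0438). Exonic ones were 3.15% in runs and 2.47% among isolated summits (Fisher's exact test, adjusted p = 0.122). Summits in runs lay a median of 7612 bp from a start site, against 18369 bp for isolated ones. All tests of shares are over summits, which are not replicates and are linked to each other within a run, so their p-values describe this list only.

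A promoter summit was part of 149 runs, and 85 runs held at least 2. Only 7 runs consisted of promoter summits alone. All summits were intronic in 93 runs and intergenic in 66. The runs ranged from introns of a long gene, as at Mtus1 and Dlc1, to promoter and flank together, as at Egfl7. Base composition and repeats were close, with a mean GC content of 51.2% in runs and 51.3% in isolated summits, and 8.47% and 8.17% of summits in repeats.

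WGATAR was no more frequent at summits in runs than at isolated summits. It lay within 50 bp of 52.3% of summits in runs (95% Wilson interval 49.8 to 54.8) and 55.1% of isolated summits (54.2 to 55.9), against 52.8% of all summits. The difference of -2.72 points (-5.36 to -0.0916) had an adjusted p of 0.387 over 12 motifs. In flanking windows, 500 bp away from the summit on both sides, the share was 16.0% for both classes, and midway between neighbours at least 1 kb apart within runs it was 15.7%. At the summits themselves, the share of all summits, which include the groups of 2 or 3, was also below that of isolated ones. A lower share than at isolated summits is therefore not particular to runs. Outside promoters, 57.2% of summits in runs and 63.3% of isolated summits had WGATAR, a difference of -6.12 points (-9.02 to -3.26, Fisher's exact test, adjusted p = 3.20e-04). Without summits that had another within 360 bp, the shares were 61.2% in runs and 63.3% among isolated summits, a difference of -2.18 points (-5.38 to 0.947) with an adjusted p of 0.384. The lower share was called with close summits and not without them. At promoters, WGATAR was at 30.2% of summits in runs and 25.2% of isolated summits, with an adjusted p of 0.214 by Fisher's exact test.

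WGATAR followed the signal in both classes. Outside promoters, in the strongest signal quintile of the list, 79.2% of summits in runs and 79.0% of isolated summits had it. In the weakest quintile the shares were 38.6% in runs and 48.4% among isolated summits, and without close summits 44.8% and 48.4%. By run, 23 of the 333 had WGATAR at every summit and 19 at none, while 264 had it at 2 or more. The largest run with WGATAR at every summit held 6, at chr5:44239371-44252598, with the start site of Tapt1 25976 bp from its strongest summit.

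**Figure D4:**
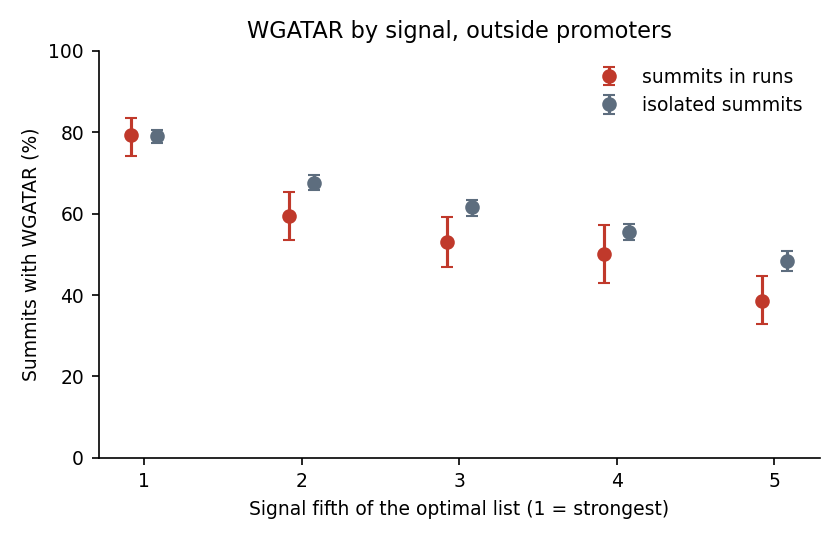
Percentage of summits outside promoters with WGATAR within 50 bp, by signal quintile of the optimal list (1 is the strongest), for summits in runs (red) and isolated summits (grey), with 95% Wilson intervals over summits. Both fall with signal, from about equal shares of 79.2% and 79.0% in quintile 1 to 38.6% and 48.4% in quintile 5.

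Of the 11 other sequences searched, 2 passed the threshold outside promoters. GGGCGG, which SP factors bind, was at 4.57% of summits in runs and 3.17% of isolated summits, a difference of 1.40 points (0.315 to 2.74, Fisher's exact test, adjusted p = 0.0484). In the flanking windows it was at 2.48% for runs and 1.61% for isolated summits, a difference that was not tested. TRTTKRY, of the FOX type with K for G or T and Y for C or T, was at 22.0% of summits in runs and 25.3% of isolated summits, a difference of -3.39 points (-5.75 to -0.884, Fisher's exact test, adjusted p = 0.0484). Its flanks held it in 21.9% and 23.7%, close to the summits themselves. Without close summits neither passed, with adjusted p-values of 0.157 for GGGCGG and 0.0547 for TRTTKRY. The call for MGGAAR, the ETS-type sequence, depended on the setting. It was at 49.8% of summits in runs and 46.8% of isolated summits, a difference of 3.04 points (0.124 to 5.96, Fisher's exact test, adjusted p = 0.101). Without close summits it was at 52.5% in runs and 46.8% among isolated summits (5.74 points, 2.48 to 8.97, Fisher's exact test, adjusted p = 0.00727). With close summits merged it did not pass (4.90 points, Fisher's exact test, adjusted p = 0.0579), and with all summits and windows of 100 bp to each side it did (3.91 points, Fisher's exact test, adjusted p = 0.0130). In replicate 2's own list the difference was 1.14 points (Fisher's exact test, adjusted p = 0.613). With 1 summit per run, the leftmost, none of these differences passed, the smallest adjusted p being 0.704 for WGATAR, MGGAAR and GGGCGG. At promoters GGGCGG was at 22.5% of summits in runs and 31.1% of isolated summits (-8.59 points, -13.4 to -3.05, Fisher's exact test, adjusted p = 0.0314), the opposite direction to that outside promoters. The E-box CAGCTG, the nuclear receptor half-site AGGTCA, the AP-1 site TGASTCA, in which S is C or G, the CEBP core TTGCAA, the NFI half-site TTGGCA and the HNF4 site passed in none of these sets. The control sequence WTATGC was at 4.14% of summits in runs and 3.91% of isolated summits.

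Within a run the summits formed a gradient of motif and replicate support along their order by signal. WGATAR was at 69.7% of the strongest summits of the 333 runs (64.5 to 74.4), 60.4% of the second, 47.7% of the third, 39.6% of the fourth and 38.2% of the 191 further ones. Replicate 1's list held 45.0% of the strongest summits and 7.21% of the fourth. Replicate 2's list held 97.6% of the strongest and 76.0% of the fourth. Promoter summits made up 13.2% of the strongest and 23.1% of the fourth. Another summit lay within 360 bp of 14.4% of the strongest and 31.2% of the fourth. How far these shares account for the gradient was not tested. The order by signal comes from the same reads, so this is a description. The same shares also fell with signal at isolated summits, so the gradient is not particular to runs. From the strongest to the weakest signal quintile, WGATAR fell there from 76.8% to 37.8%. Presence in replicate 1's list fell from 60.1% to 0.419%, and in replicate 2's from 99.8% to 45.5%. The strongest summit was at an end of the run in 157 of 333 runs (47.1%), against 45.3% if every place held it equally often.

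**Figure D5:**
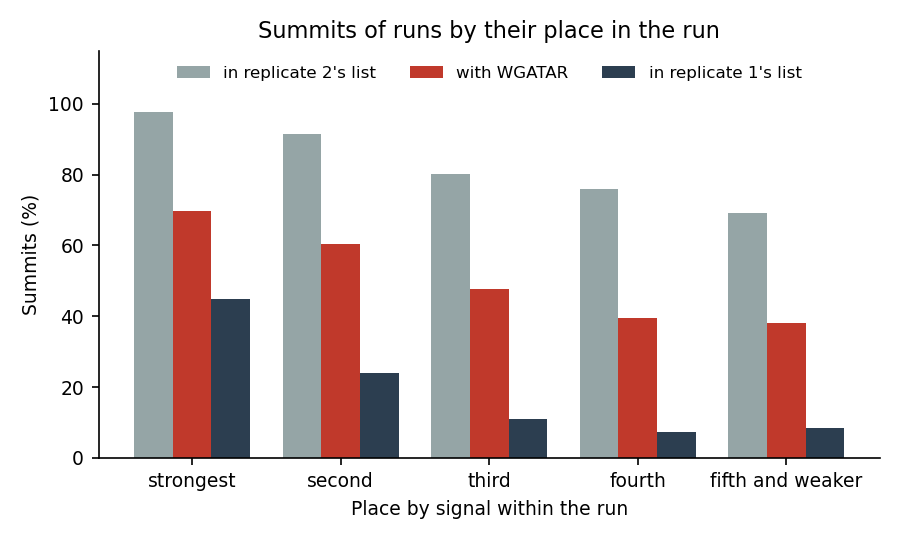
Percentage of summits with WGATAR within 50 bp (red), and listed for replicate 2 (light grey) or for replicate 1 (dark), by place of the summit in its run from strongest to weakest signal. There are 333 summits in each of the first 4 places and 191 in the last. Replicate 1's list holds 45.0% of the strongest and 7.21% of the fourth summits, replicate 2's 97.6% and 76.0%.

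Replicate support of runs rested mostly on replicate 2, whose own list held 26314 peaks against 4287 in replicate 1's. A summit counted as supported where its peak overlapped any peak of the replicate's list. Replicate 2's list held every summit of 178 runs, at least 4 summits of 225, and none of 1, the run at Vps26c. Replicate 1's list held no summit of 151 runs, 1 summit of 91, at least 2 of 91, at least 4 of 5 and every summit of none. In all, 20.2% of summits in runs (18.2 to 22.2) and 16.1% of isolated summits (15.5 to 16.7) had a peak in replicate 1's list, against 17.0% of all summits. For replicate 2 the shares were 84.2% in runs and 82.5% among isolated summits, against 82.5% of all. The order turned with the summit itself required inside replicate 2's peak, at 79.7% in runs and 82.2% among isolated summits. For replicate 1 the shares were then 18.8% in runs and 16.0% among isolated summits. Each replicate also has a longer, relaxed list. Replicate 1's relaxed list had a summit inside the peak for 68.4% of summits in runs and 67.2% of isolated ones. For replicate 2's relaxed list the shares were 97.2% and 99.5%. Absence from replicate 1's own list therefore does not mean absence from its relaxed list. Matches in that relaxed list can be weak. Their median rank in it was 11590 for summits in runs and 14202 for isolated summits, and 1 Gse1 summit matched at rank 287592. A share of matches by chance is not given. These lists share reads with the optimal list, so the shares are descriptions. In the weakest signal quintile, 7.06% of summits in runs and 0.419% of isolated ones were in replicate 1's own list. Without close summits, 0 of 158 summits in runs were (upper Wilson limit 2.37%), against 0.419% of isolated ones, so all 25 supported summits there had a neighbour within 360 bp.

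The same rule was also applied to each replicate's own list, and the resulting summits were looked up in the other replicate's list. This keeps the list that defined the runs apart from the list looked up. Both samples carry the same donor identifier and summits within a run are linked, so the p-values describe these lists only. Replicate 2's list gave 415 runs with 1920 summits, of which 17.3% overlapped a peak of replicate 1's list, against 14.6% of 14885 isolated summits of the same list. The difference of 2.72 points (0.991 to 4.56) had a two-sided Fisher's exact p of 0.00196. It was seen in the weakest quintile of signal, at 7.04% and 0.821%, and not in the other 4, where p-values ran from 0.104 to 0.801. With the summit itself required inside the other replicate's peak, the shares in the weakest quintile were 1.92% in runs and 0.821% among isolated summits. Over all quintiles that requirement left a difference of 1.08 points (Fisher's exact test, p = 0.204). With 1 summit per run it was 0.555 points (Fisher's exact test, p = 0.725). It was larger with close summits merged, at 4.20 points (Fisher's exact test, p = 7.83e-05), and for runs of at least 6 summits, at 4.51 points (Fisher's exact test, p = 0.0141). None of the differences over all quintiles was matched for signal, and merging kept the strongest summit of each chain. The strongest quintile held 455 of the 1920 summits in runs and 3006 of the 14885 isolated ones. Of the 333 runs, 196 (58.9%) overlapped a run of replicate 2's list, which is 47.2% of that list's 415 runs. Replicate 1's list gave 4 runs with 17 summits, few for a comparison: 76.5% of them and 92.5% of 3416 isolated summits overlapped a peak of replicate 2's list (p = 0.0344, two-sided Fisher's exact test).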

How the data were processed

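The samples were 2 ChIP-seq libraries of GATA4 from whole adult liver. Peak lists of both, and lists that combine them, were used as deposited. The signal per peak is the peak caller's score in each deposited list, with no unit given in the file headers. For the lists on mm10, an aligner, a peak caller and a read depth are not stated by any source used here. The optimal and conservative lists come from an earlier run of the authors' processing and the replicates' own lists from a later run, per the deposited README tables. The optimal list is passed by an irreproducible discovery rate threshold per its name, and the control libraries were not used here.

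Summits were joined as described, distances were taken to GENCODE mouse release 21 basic protein-coding genes, and sequence came from RefSeq GRCm38.p6, the same assembly as mm10. Windows were 101 bp, and 12 motifs were searched on both strands, with overlaps. Shares have 95% Wilson intervals and differences Newcombe intervals, which cover counting error over summits only. Fisher's exact tests were two-sided, with the Benjamini-Hochberg correction over 12 motifs within a set of summits or over 4 places, at a threshold of 0.05. Signal quintiles were cut on the whole optimal list, and in the look-up between replicates on the replicate's list that defined the runs. Intervals for reads were not computed, since the depth is unknown. Python 3.11.15 with pandas 2.3.3, SciPy 1.17.1 and statsmodels 0.14.6 was used, and the joining, overlap, motif and test code was tested on simulated data.

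The runs, the 10 gene lists and the tests were chosen with earlier results of these data known. The rule for names took the genes within 10 kb of the 15 runs with most summits, those nearest to the 10 runs with the strongest peaks, and at most 6 members of each list by number of run summits. Results for 1 gene named by this rule and 1 sequence window are not reported here. The symbol Tf of the hepatocyte list was not found in the annotation. Alternatives were other joining distances and run sizes, merging of close summits, other lists, each replicate's own list, 1 summit per run, other windows and definitions of promoter and isolated, and weighting by signal. Those at 360 bp, the weighting by signal, and the alternatives for the intron share and for the ETS, SP and FOX motifs were chosen after seeing the data.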

Additional observations from a re-analysis of the deposited data

How the results depend on the processing

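The number of runs followed the rule. It was 102 with summits joined at 2.5 kb, 738 at 10 kb, 47 for runs of at least 6 summits and 35 in the conservative list. The share of summits in runs was then 1.84%, 15.2%, 1.29% and 1.61% (5.93% in the later run's pooled list), and the share of protein-coding genes with a run was 0.570%, 4.12%, 0.257% and 0.170%. That gene share was 1.68% with the later run's pooled list and 1.31% with the run summit required inside the gene. With summits closer than 360 bp merged, 4.67% of summits were in runs and 1.43% of genes had one. Leaving out either replicate, by using the other's own list, gave 4 to 415 runs, 0.397% to 7.30% of summits and 0.0322% to 2.41% of genes, the low values from replicate 1's list.

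WGATAR over all summits passed with summits joined at 2.5 kb (-7.29 points, runs minus isolated), and turned to 1.84 points with close summits merged and 1.87 points with them left out. With each replicate's own list it was -6.41 points (replicate 2, passed) and -16.7 points (replicate 1). Outside promoters it lost its call with runs of at least 6 (-6.99), the conservative list (-8.42), 1 summit per run (-4.06), AGATAA (-3.35), close summits merged (-2.14) or left out (-2.18), and was -10.7 in replicate 2's list and -0.655 in replicate 1's. The promoter share reversed with joining at 2.5 kb (4.56), promoters within 2.5 kb (3.57) and in replicate 1's list (15.7, from 17 summits), lost its call in the conservative list (-3.47) and with 1 summit per run (-4.28), and was -2.07 in replicate 2's list. The intron share reversed in the conservative list (-4.72) and in replicate 1's list (-16.1, from 17 summits), and was 4.55 in replicate 2's list (passed). Support of replicate 2's runs in replicate 1's list lost its call with joining at 2.5 kb (0.264), 1 summit per run (0.555) and the summit inside the peak (1.08), and grew with close summits merged (4.20) and runs of at least 6 (4.51). Support of replicate 1's runs in replicate 2's list lost it with joining at 10 kb (-0.928) and 1 summit per run (-17.5), and reversed with close summits merged (7.81). It could not be computed for runs of at least 6. The causes were not tested, and some settings also leave fewer summits.

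No paired analysis was possible because there is 1 group. Depth is unknown, so peaks missing from replicate 1's list cannot be told apart from regions without binding.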
